A study of Mus musculus with 6 samples.

Results

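The nuclear genes of respiratory complexes II, III, IV and V were examined in DP thymocytes of WT and NSrp70-cKO mice. Members were taken by symbol (*Sdha*, *Sdhb*, *Sdhc* and *Sdhd*, and every symbol that starts with *Uqcr*, *Cox4*, *Cox5*, *Cox6*, *Cox7*, *Cox8* or *Atp5*), and 47 of the 23183 gene symbols met this rule. Of these, 43 reached FPKM 1 in 3 or more of the 6 libraries and were among the 10326 genes tested. FPKM counts sequenced fragments relative to the length of the transcript and to all mapped fragments in the library. The 43 genes comprised 4 of complex II, 8 of complex III, 14 of complex IV and 17 of complex V.

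The libraries came from sorted double positive (DP) thymocytes, which are T cell precursors with CD4 and CD8 together on their surface. The study compared *Nsrp1* f/f mice (WT) with *Nsrp1* f/f CD4Cre mice (NSrp70-cKO), with 3 libraries per genotype, all on C57BL/6 at 6 weeks of age. Both genotypes carry the floxed *Nsrp1* alleles, and Cre, driven by CD4 regulatory sequence and so active in developing T cells, is named for the cKO mice only. NSrp70, the product of *Nsrp1*, is a splicing factor of nuclear speckles. Whether each library came from 1 mouse or from pooled mice is not given in the sources used here, so p-values measure the spread between these libraries, which may be technical.

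Complexes II to V carry out the later steps of oxidative phosphorylation in the inner mitochondrial membrane. Complex II (succinate dehydrogenase) passes electrons from the TCA cycle to ubiquinone, complex III passes them on to cytochrome c, and complex IV (cytochrome c oxidase) hands them to oxygen. Complexes III and IV pump protons, and complex V (ATP synthase) lets the protons flow back and makes ATP. Complex II is encoded entirely in the nucleus. The catalytic core of complex IV, cytochrome b of complex III and a pair of membrane subunits of complex V are encoded in mitochondrial DNA, so the nuclear *Cox* genes encode supernumerary subunits around that core. In the thymus, DP cells arise from dividing precursors and then become small resting cells.

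Before the members were compared, the libraries were checked. *Nsrp1*, listed under its older symbol *Ccdc55*, had an FPKM of 20.2, 20.7 and 21.1 in WT and of 17.7, 15.8 and 15.0 in cKO. The DP markers *Cd4*, *Cd8a*, *Cd8b1* and *Rag1* lay at an FPKM of 486 or more in every library, whereas the erythroid marker list summed to 1.98 to 2.73 in WT and to 12.4 to 26.6 in cKO, nearly all of it from *Hba-a1* and *Hbb-b1*, and the stromal list summed to 3.60 to 4.12 in WT and to 1.96 to 3.72 in cKO, nearly all of it from *Epcam*, with *Krt5* and *Foxn1* listed at 0 in every library. *Rn45s*, the ribosomal RNA precursor, had an FPKM of 6099, 6118 and 6028 in WT, was listed at 0 in all 3 cKO libraries and counts in the FPKM totals and shares given here. Its part in the results was not tested. *Xist* (69.8 to 72.0 in WT, 4.07 to 5.44 in cKO) and 4 genes of chromosome Y (listed at 0 in WT, above 5 in cKO) separated the genotypes too, so that the sex of the mice and their genotype cannot be told apart. Estimated depth was 20.6 to 20.8 M mapped fragments in WT and 13.1 to 20.5 M in cKO. Over single-transcript genes, the median squared difference between WT libraries was 1.37 to 1.40 times that of counting noise, against 6.11 to 15.2 times between cKO libraries. WT values are therefore given per library without an SD, and counts of genes are also given with the mean of the WT libraries standing as 1 sample. The adjusted p-values printed for single genes count the WT libraries as 3 samples. The narrow WT spread, which may be technical, enters them, so they can be too small.

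Nearly all members were higher in NSrp70-cKO DP thymocytes. Of the 43 genes tested, 37 were higher, none was lower and 6 (*Sdhc*, *Uqcrc1*, *Cox6b2*, *Atp5d*, *Atp5s* and *Atp5sl*) did not pass the test (limma on log2(FPKM + 1), adjusted p under 0.05). Of these 37, *Cox6a2* met the filter only through its cKO libraries, where it was high. Over all 10326 genes tested, 35.8% were higher and 29.8% lower. The median log2 fold change was 0.80 for the members and 0.04 for all genes, and 13 members were at least 2-fold higher (3.88% of all genes). In 37 members all 3 cKO libraries lay above all 3 WT libraries, as in 39.2% of all genes. The opposite order held for *Cox6b2* (33.3% of all genes), and the libraries overlapped in 5 members. By complex, 3 of 4 genes of complex II, 7 of 8 of complex III, 13 of 14 of complex IV and 14 of 17 of complex V were higher, with median log2 fold changes of 0.57, 0.87, 0.80 and 0.87.

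**Figure D1:**
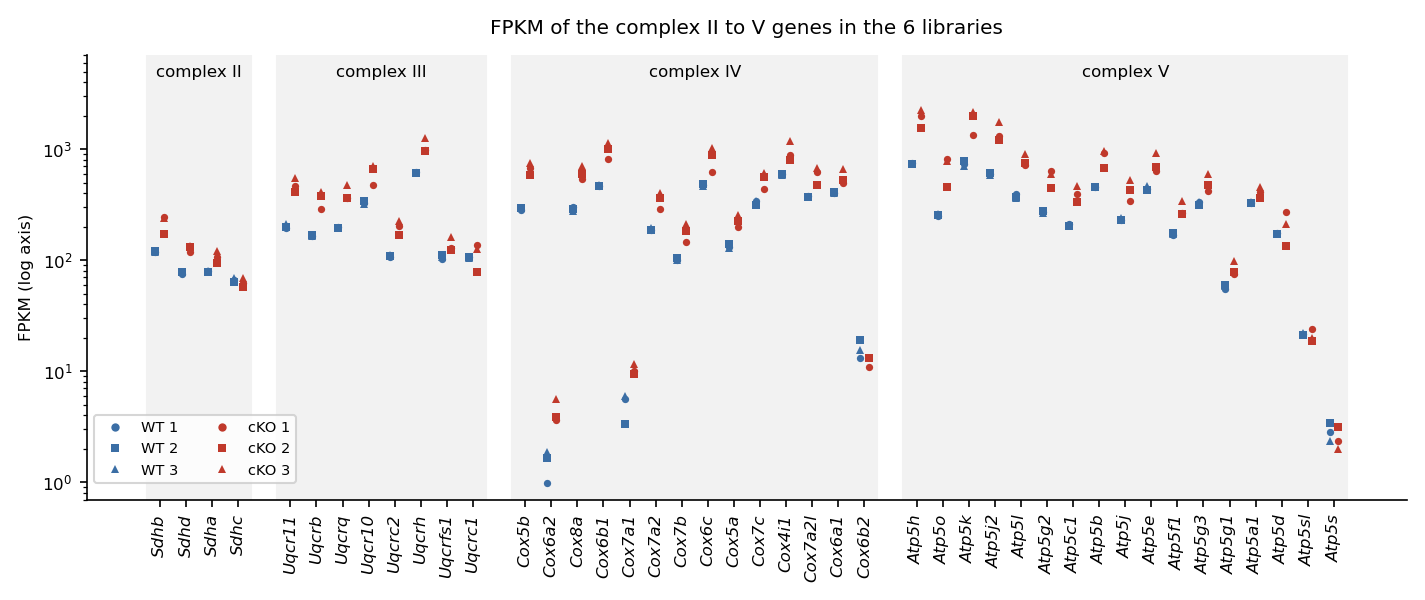
FPKM (log axis) of the 43 tested genes in each of the 3 WT (blue) and 3 cKO (red) libraries, 1 symbol shape per replicate number, grouped by complex and ordered by log2 fold change within it. The WT points of most genes coincide, and the cKO points lie above them in 37 genes.

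The size of the difference depended on how the libraries were scaled. The values above were scaled by median-of-ratios size factors, which were 1.00 to 1.01, while the deposited FPKM totals were 521296 to 531517 in WT and 701396 to 850548 in cKO. Under quantile normalization, which gives each library the same distribution of values, 23 members were higher and 2 (*Sdhc* and *Atp5a1*) lower, with a median of 0.29 (33.7% of all genes higher, 29.4% lower). When every library was brought to an equal FPKM total, 19 members were higher and 6 lower, with a median of 0.24, while the median of all genes moved to -0.45 (8.74% of all genes higher, 59.9% lower). Relative to the median of all genes, the members were thus 0.76 higher with size factors, 0.70 with equal totals and 0.25 with quantile normalization, on the log2 scale. With the WT libraries counted as 1 sample, 9 members were higher and none lower (7.16% of all genes higher), with the median still at 0.80. A group of 11 members (*Sdhb*, *Uqcrc2*, *Uqcr11*, *Uqcrq*, *Cox5b*, *Cox8a*, *Atp5c1*, *Atp5g2*, *Atp5h*, *Atp5j2* and *Atp5o*) was higher under both of these scalings and after a correction for transcript length and GC content as well. Of these 11, *Uqcr11*, *Uqcrq*, *Cox5b* and *Cox8a* were also higher with the WT libraries counted as 1 sample.

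**Figure D2:**
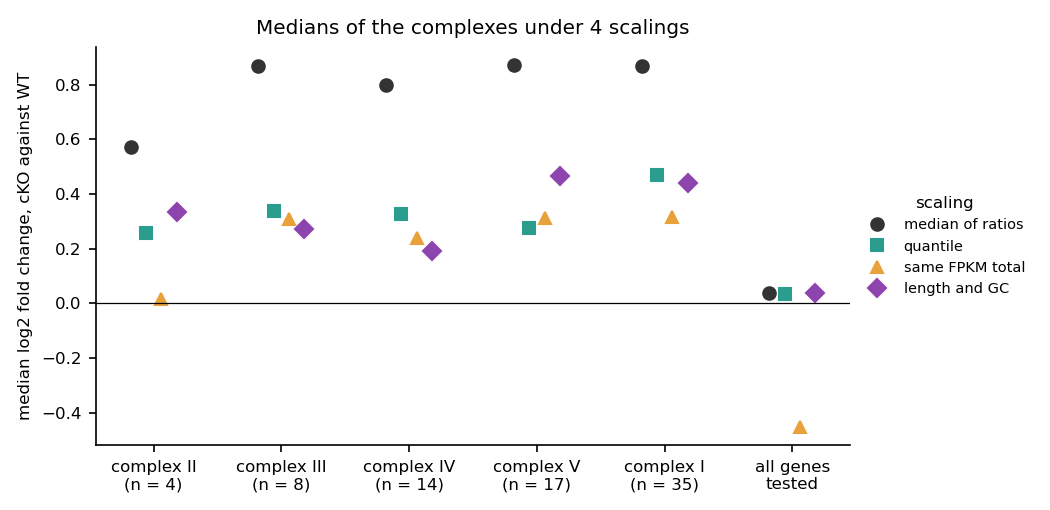
Median log2 fold change (cKO against WT) of the genes of each complex, of the 35 complex I subunits and of all genes tested, under 4 scalings. The medians of complexes II to V lie between 0.57 and 0.87 with size factors and between 0.02 and 0.47 under the other 3, and the median of all genes falls below 0 only with the same FPKM total.

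The share of each library's FPKM that the members took was also computed. It divides by the FPKM total, as the scaling to equal totals does, and so is no separate line of evidence. Together the 43 tested genes accounted for 2.12, 2.16 and 2.12% of the FPKM total in WT and for 2.52, 2.81 and 2.96% in cKO. The cKO libraries lay above the WT libraries by 0.63 percentage points on average (exact two-sided permutation test, p = 0.1, and 3 libraries in each genotype can give no smaller p). Complex V gave the largest part, with 1.02 to 1.04% in WT against 1.34 to 1.53% in cKO. Complex IV took 0.693 to 0.707% against 0.729 to 0.903%, and complex III 0.343 to 0.352% against 0.385 to 0.459%. The share of complex II was 0.0638 to 0.0656% in WT and 0.0648 to 0.0672% in cKO, and here the libraries overlapped (exact two-sided permutation test, p = 0.3). A sum of FPKM is a share of the transcripts only after division by the FPKM total, which differed between the genotypes. In bulk samples a change in the number of cells of one kind and a change in RNA per cell cannot be told apart.

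In complex II, 3 of 4 genes rose, with a median of 0.57, the smallest of the 4 complexes with size factors but above those of complexes III and IV after the length and GC correction. *Sdha*, the flavoprotein that oxidises succinate, had an FPKM of 80.3, 77.9 and 80.2 in WT and of 106, 94.7 and 122 in cKO (log2 fold change 0.42 ± 0.101 SE, adjusted p = 0.00847 from limma). *Sdhb*, its iron-sulfur partner, had 118, 120.3 and 118 in WT and 246, 171 and 239 in cKO (0.86 ± 0.144, adjusted p = 0.00191 from limma). The cKO values of both genes lay above all WT values, and *Sdhb* rose most in the complex. *Sdhc*, a membrane anchor, had 66.2, 63.8 and 69.7 in WT and 61.9, 57.5 and 68.8 in cKO (-0.09 ± 0.0855, adjusted p = 0.391 from limma). *Sdhd*, the other membrane anchor, had 74.6, 77.8 and 78.8 in WT and 118, 131 and 135 in cKO (0.72 ± 0.0735, adjusted p = 0.000302 from limma). The anchors thus differed from each other: the libraries overlapped for *Sdhc*, while *Sdhd* was higher in every cKO library. Under equal FPKM totals the log2 fold change of *Sdha* was -0.13, and *Sdhc* was lower (-0.64).

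In complex III, 7 of 8 genes rose. *Uqcr11*, a small subunit, had the largest difference of the complex, with an FPKM of 195, 200.5 and 210.2 in WT and of 467, 414 and 547 in cKO (1.22 ± 0.117 SE, adjusted p = 0.00025 from limma). *Uqcrc2*, core protein 2, had 106, 110.0 and 112 in WT and 202, 169 and 227 in cKO (0.85 ± 0.115, adjusted p = 0.000793 from limma). *Uqcrfs1*, the Rieske iron-sulfur protein, had 102, 112 and 108 in WT and 128, 123 and 161 in cKO (0.35 ± 0.113, adjusted p = 0.0285 from limma). These 3 genes were higher in every cKO library than in any WT library. *Uqcrc1*, core protein 1 and the partner of *Uqcrc2*, had the smallest difference, with 106, 106 and 105 in WT and 137, 78.1 and 126 in cKO (0.06 ± 0.201, adjusted p = 0.805 from limma). Its cKO libraries went both ways, cKO 2 below and cKO 1 and 3 above WT, and without cKO replicate 2 it was higher (0.32). The remaining *Uqcrb*, *Uqcrh*, *Uqcrq* and *Uqcr10*, all supernumerary subunits, rose by 0.79 to 1.09 on the log2 scale. After the length and GC correction *Uqcrq* was still higher (0.70), while *Uqcrb*, *Uqcrh* and *Uqcr10* did not pass the test (0.03, -0.03 and 0.30). Under quantile normalization *Uqcrb* and *Uqcrq* were higher, and *Uqcrh* and *Uqcr10* did not pass. The call of *Uqcrfs1* was lost when any WT library was left out, and its log2 fold change was -0.03 under quantile normalization, -0.21 with equal FPKM totals and -0.05 after the length and GC correction.

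In complex IV, 13 of 14 nuclear genes rose. *Cox4i1*, which the assembling enzyme takes up early, had an FPKM of 593, 592 and 591 in WT and of 887, 792 and 1188 in cKO (0.67 ± 0.159 SE, adjusted p = 0.00825 from limma). *Cox5a*, its partner on the matrix side, had 133, 139 and 130.2 in WT and 198, 227 and 258 in cKO (0.75 ± 0.104, adjusted p = 0.000867 from limma). *Cox5b*, the zinc-binding subunit, had 281, 293 and 295 in WT and 682, 580.1 and 751 in cKO (1.20 ± 0.115, adjusted p = 0.000254 from limma). The WT values of *Cox4i1* fell within 3 FPKM of each other, and all cKO values of these genes lay above all WT values. The other subunits used in every tissue (*Cox6a1*, *Cox6b1*, *Cox6c*, *Cox7a2*, *Cox7b*, *Cox7c* and *Cox8a*) rose by 0.47 to 1.07. *Cox7a2l*, which encodes a supercomplex factor related to *Cox7a2* and not a regular subunit, rose by 0.65. The call of *Cox6a1* was lost without WT replicate 1 or 3, and *Cox4i1* and *Cox6a1* had log2 fold changes of -0.05 and -0.16 under quantile normalization. After the length and GC correction 3 of the 14 genes were higher and 1 lower, beside 32% and 25.2% of all genes. *Cox4i1* (0.49) and *Cox5b* (0.58) were then higher, while *Cox5a* (-0.0056) did not pass the test. With equal FPKM totals *Cox5a* did not pass either (0.19).

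Isoforms of complex IV that are known from other tissues had lower levels than the isoforms used in every tissue. *Cox6a2* and *Cox7a1*, the heart and muscle isoforms, and *Cox6b2*, the testis isoform, passed the filter, whereas *Cox4i2* reached an FPKM of at most 0.62 and *Cox7b2*, *Cox8b* and *Cox8c* were listed at 0 in every library. *Cox6b2* had the only negative log2 fold change of the complex, with 13.1, 19.1 and 15.4 in WT and 11.0, 13.0 and 13.1 in cKO (-0.32 ± 0.135 SE, adjusted p = 0.0696 from limma). All its cKO values lay below the WT values, though cKO 3 and WT 1 both came to 13.1. Its share of the *Cox6b1* and *Cox6b2* sum was 2.74, 3.92 and 3.13% in WT and 1.33, 1.28 and 1.13% in cKO. *Cox6a2* went the other way, from 0.990, 1.67 and 1.87 in WT to 3.61, 3.88 and 5.58 in cKO (1.09 ± 0.184). With WT 1 under FPKM 1, it met the filter only through its cKO libraries, where it was high, so its test gives no support. It is still counted among the 37 higher members and among those higher with the WT libraries as 1 sample. Its values are low, and its share of the *Cox6a1* and *Cox6a2* sum stayed under 1% in every library, at 0.247 to 0.465% in WT and 0.723 to 0.829% in cKO. *Cox7a1* had 5.63, 3.35 and 5.95 in WT and 10.1, 9.51 and 11.7 in cKO (0.96 ± 0.185, adjusted p = 0.00340 from limma).

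In complex V, 14 of 17 genes rose. *Atp5h*, the older symbol of *Atp5pd*, encodes subunit d of the peripheral stalk and was also assayed by qRT-PCR. It lies on the minus strand of chr11:115415689-115419962 (GRCm38) and had an FPKM of 756, 737 and 729 in WT and of 2007, 1557 and 2240.5 in cKO (1.37 ± 0.156 SE, adjusted p = 0.000439 from limma). The lowest cKO library (1557) thus lay above the highest WT library (756). Its log2 fold change was the largest of the 43 members with size factors. By ratio of mean FPKM, with a pseudocount of 0.1 and under quantile normalization the low-level *Cox6a2* of complex IV exceeded it. By ratio of mean FPKM *Atp5o* did so too (2.665 against 2.611). Under quantile normalization (0.60) and after the length and GC correction (0.65), *Atp5o* (0.80 and 0.94), *Uqcr11* (0.70 and 0.84) and other members lay above it. *Atp5o*, which encodes the stalk subunit OSCP, had 248, 258 and 263 in WT and 814, 457 and 778 in cKO (1.36 ± 0.219, adjusted p = 0.00157 from limma), but its annotated locus is shared with another gene entry of the same name. Of the catalytic head, *Atp5a1*, subunit alpha, had 329, 324 and 334 in WT and 409.6, 361 and 453 in cKO (0.30 ± 0.104, adjusted p = 0.0369 from limma). *Atp5b*, subunit beta, had 454, 454 and 456 in WT and 921, 672 and 954 in cKO (0.88 ± 0.149, adjusted p = 0.00198 from limma). *Atp5c1*, subunit gamma of the central stalk, had 209.8, 204 and 208 in WT and 393, 337 and 461 in cKO (0.92 ± 0.123, adjusted p = 0.000768 from limma). Alpha and beta occur in equal numbers in the enzyme, and their genes differed in size of change, cKO to WT ratios of mean FPKM being 1.24 and 1.87. The alpha gene was lower under quantile normalization (-0.28) and with equal FPKM totals (-0.26). Its call was also lost when any library but cKO 2 was left out, without the filter, with the replicate block and after the length and GC correction.

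The other genes of complex V followed 2 patterns. *Atp5k*, *Atp5j2* and *Atp5l*, the supernumerary membrane subunits e, f and g, rose by 1.07 to 1.26, and *Atp5e*, *Atp5f1* and *Atp5j* (subunits epsilon, b and F6) by 0.73 to 0.87. *Atp5d*, subunit delta of the central stalk, had 176, 171 and 172 in WT and 274, 136 and 213 in cKO, with cKO 2 below and cKO 1 and 3 above WT (0.20 ± 0.236, adjusted p = 0.474 from limma). It was higher without cKO replicate 2 (0.49), as was *Uqcrc1*, and with *Atp5o* they had the largest SEs of the 43 members. The 2 genes of the *Atp5* name that encode no subunit of the enzyme did not pass the test. *Atp5s*, with the most negative log2 fold change of the complex, had 2.85, 3.41 and 2.34 in WT and 2.33, 3.17 and 2.00 in cKO (-0.15 ± 0.152, adjusted p = 0.415 from limma), and *Atp5sl* had 21.2 to 22.2 in WT and 18.6 to 24.0 in cKO.

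**Figure D3:**
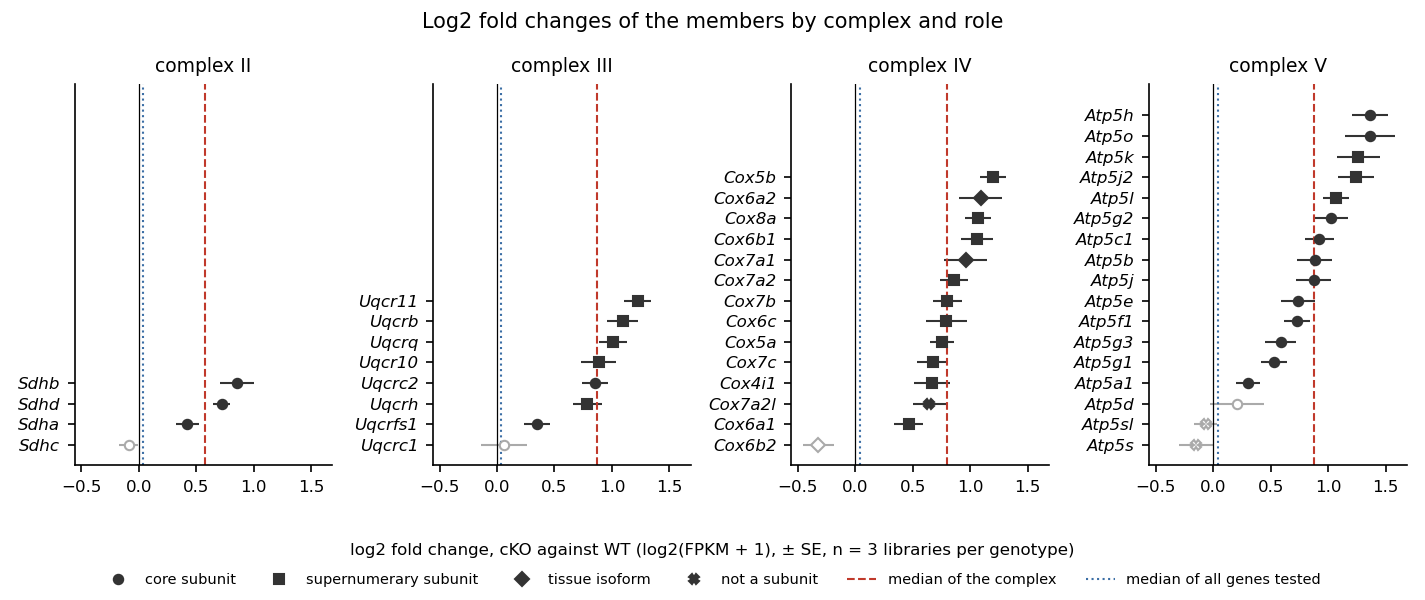
Log2 fold change (cKO against WT, on log2(FPKM + 1)) of every tested member with its SE over 3 libraries per genotype, in 4 panels by complex. Filled symbols passed the test at an adjusted p of 0.05 and open symbols did not, symbol shapes mark the role, and the median of each complex lies between 0.57 and 0.87 against 0.04 for all genes tested.

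The qRT-PCR primers of *Atp5pd* given with the study are shown because they tell which transcripts that assay and the FPKM row could both have counted.
Atp5pd forward: aatgagaccttccacgccag
Atp5pd reverse: tgtccagcttggtttctggg
On the GENCODE transcript of *Atp5h* they lie at positions 240 to 259 and 557 to 576, within the coding sequence (138 to 623), and bound a product of 337 nucleotides. The forward primer also has an exact match in *Gm10250*, and the reverse primer in *Gm10250* and *Gm4953*. Of all stretches of read length in the *Atp5h* transcript, 29.2% also occur in *Gm10250*. Such sharing makes the counts of a gene uncertain where reads can be split between copies. A shared stretch was found in 17 of the 43 members, and sharing was highest for *Atp5g2* (86.4%), *Atp5l* (68.7%) and *Cox7c* (44.1%). The search took in every other gene entry on either strand, so not all 17 share with a copy. *Atp5a1* shared stretches with *Haus1*, *Atp5j* with *Gabpa* and *Cox4i1* with *Emc8*. All 17 were higher, with a median of 0.79, and 20 of the 26 members without any shared stretch were higher, with a median of 0.83.

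The c subunit of complex V, which forms the proton-driven ring, is made from 3 genes. *Atp5g1*, *Atp5g2* and *Atp5g3* encode different mitochondrial targeting sequences in front of the same mature protein, so that their summed output supplies 1 part. The first 120 bases of the part that encodes the mature protein are shown for each gene, to show how far reads can tell the copies apart. Capitals mark the 29 positions that the 3 genes do not all share.
Atp5g1: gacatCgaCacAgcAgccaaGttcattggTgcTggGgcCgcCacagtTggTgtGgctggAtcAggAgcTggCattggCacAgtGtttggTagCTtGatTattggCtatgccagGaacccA
Atp5g2: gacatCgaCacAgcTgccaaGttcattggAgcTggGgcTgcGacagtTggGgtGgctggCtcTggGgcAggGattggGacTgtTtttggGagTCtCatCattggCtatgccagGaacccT
Atp5g3: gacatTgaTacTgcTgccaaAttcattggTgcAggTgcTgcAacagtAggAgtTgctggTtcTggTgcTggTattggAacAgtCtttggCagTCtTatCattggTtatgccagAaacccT
Over the whole of this part, *Atp5g1* and *Atp5g2* are 85.1% identical, *Atp5g1* and *Atp5g3* 79.8%, and *Atp5g2* and *Atp5g3* 78.5%, and the longest identical run of any pair is 21 bases. Reads from the 3 genes therefore differ here.

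All 3 genes of the c subunit rose, *Atp5g2* most. *Atp5g1* had an FPKM of 55.0, 59.4 and 58.6 in WT and of 75.1, 78.2 and 99.4 in cKO (0.53 ± 0.113 SE, adjusted p = 0.00523 from limma). *Atp5g2* had 274, 275 and 267 in WT and 635, 448 and 603 in cKO (1.03 ± 0.143, adjusted p = 0.000875 from limma), and *Atp5g3* had 337, 316 and 336 in WT and 424, 480.3 and 597 in cKO (0.59 ± 0.133, adjusted p = 0.00686 from limma). The share of the summed FPKM held by *Atp5g2* was 41.1, 42.3 and 40.4% in WT and 56.0, 44.5 and 46.4% in cKO, and that of *Atp5g3* was 50.6, 48.6 and 50.7% in WT and 37.4, 47.7 and 46.0% in cKO. *Atp5g1* held 8.26 to 9.12% in WT and 6.62 to 7.76% in cKO. *Atp5g3* was thus the leading gene in every WT library, and in cKO 2, whereas *Atp5g2* led in cKO 1 and, by less than 1 percentage point, in cKO 3. No test was made of these shares, whose difference for *Atp5g2* (7.71 percentage points on average) was 4.2 without cKO replicate 1. The *Atp5g2* values are also the least certain of the 3. Of its stretches of read length, 86.4% also occur in *Gm10175* or *Gm10231*, while 6.18% of those of *Atp5g1* and 0% of those of *Atp5g3* occur in other genes.

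**Figure D4:**
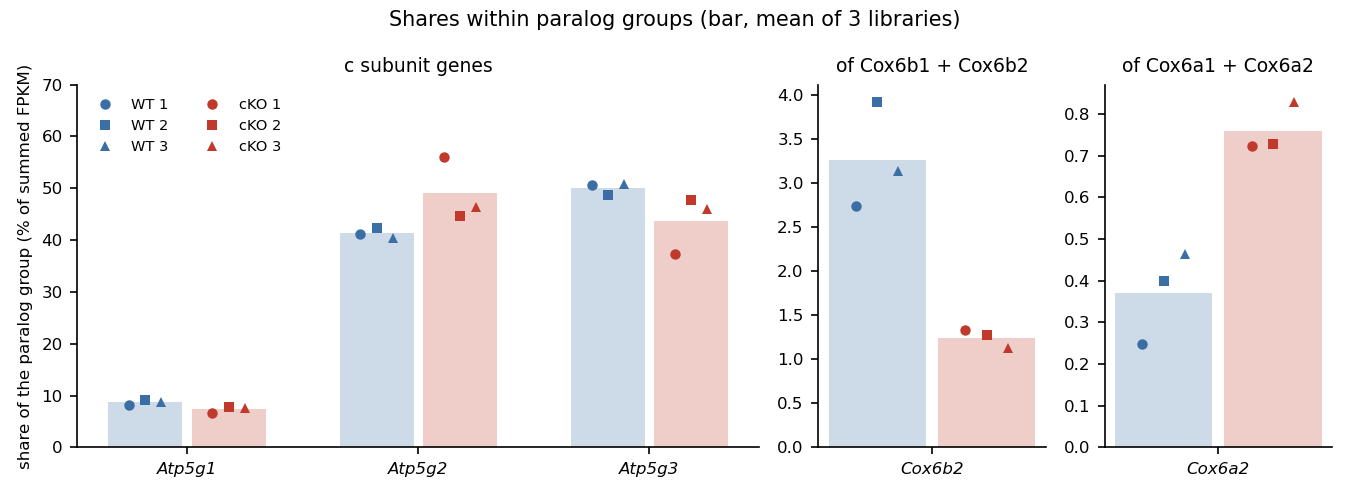
Shares (% of summed FPKM) of *Atp5g1*, *Atp5g2* and *Atp5g3* among the c subunit genes (left), of *Cox6b2* with *Cox6b1* (middle) and of *Cox6a2* with *Cox6a1* (right), in each WT (blue) and cKO (red) library with the mean as a bar. The *Atp5g2* share reaches 56.0% in cKO 1 and lies at 44.5 and 46.4% in cKO 2 and 3, above the 40.4 to 42.3% of WT.

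The order of the cKO libraries differed from member to member, whereas the WT libraries hardly differed. Over the 37 subunits used in every tissue, the median coefficient of variation was 2.07% in WT and 16.7% in cKO, and it was larger in cKO for all 37. The highest value came from cKO 3 in 32 of them and from cKO 1 in the other 5. The lowest came from cKO 2 in 20 and from cKO 1 in 17. Taken library by library, the median difference of the 43 members from the WT mean was 0.64, 0.71 and 1.05 on the log2 scale in cKO 1, 2 and 3. Leaving out 1 library at a time gave 34 to 39 higher members and a median of 0.68 to 0.84.

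Many members had a short transcript, a high level or both. Of the 43 genes, 28 were in the top 5% of tested genes by WT mean FPKM (138 or more), a range of 516 genes whose log2 fold changes had a median of 0.59. The median transcript length was 809 nucleotides for the members against 2950 for all genes tested, and 23 members fell among the shortest 5% of genes (860 nucleotides or less), 514 genes whose log2 fold changes had a median of 0.72. Among the members, log2 fold change and log2 length had a Pearson r of -0.49 and a Spearman rho of -0.47 (n = 43 genes of the same libraries, as a description, since genes are not independent replicates), and over 10263 genes with a length rho was -0.30. With the GC content of the transcript, rho was 0.10 for the members and -0.33 for all genes. After length and GC content had been fitted and removed in each library, 18 members were higher and 2 (*Cox6b2* and *Atp5s*) lower, with a median of 0.30 (32% of 10263 genes higher and 25.2% lower). The medians by complex were then 0.34, 0.27, 0.19 and 0.47 for complexes II, III, IV and V. What part library preparation or fragment selection by length had in the differences was not tested.

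**Figure D5:**
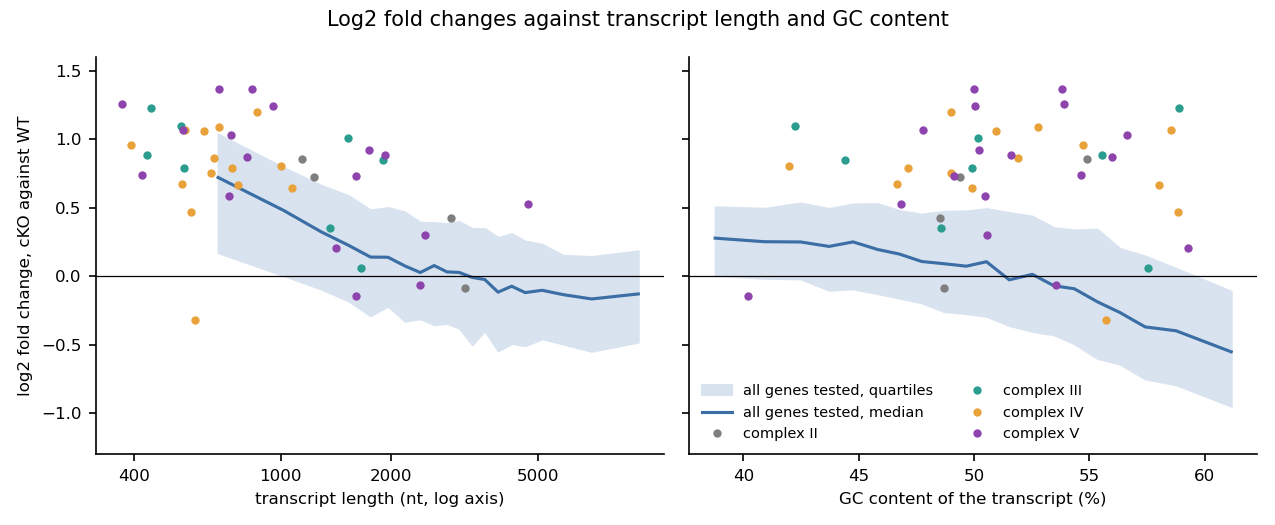
Log2 fold change (cKO against WT) of each member against transcript length (left, nucleotides, log axis) and GC content (right, %), coloured by complex, over the median and quartiles of all genes tested in 20 bins of equal size. The shortest bin of all genes has a median of 0.72 and 18 of the 23 members of that length lie above it, and the median of all genes declines with length and with GC content.

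The order of core and supernumerary subunits turned under this correction. The 18 supernumerary subunits used in every tissue were all higher, with a median of 0.95, and 16 of the 19 core subunits (those of complex II, the core and Rieske proteins of complex III, and the head, stalks and c ring of complex V) were higher, with a median of 0.73. Supernumerary subunits had the shorter transcripts, with a median of 594.5 nucleotides against 1410. After the correction 6 of 18 supernumerary and 12 of 19 core subunits were higher, with medians of 0.25 and 0.43, beside 32% of all genes. The difference between the roles was not tested.

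Promoter sequence was examined because nuclear genes of oxidative phosphorylation are known for sites of NRF1, of GABPA and other ETS factors, and of YY1. RefSeq windows (GRCm38.p6, 250 bases before to 50 after each start) were found for 35 of the 43 members, and both strands were searched. Of these, 5 windows are shown, with matches to the NRF1 motif (GCGCA, any base, GCGC) and the GABPA motif (CCGGAAG, or CTTCCGG on the other strand) in capitals. They were picked from windows that hold such a match, whereas 17 of the 35 hold neither, and are those of the member measured by qRT-PCR (*Atp5h*), 3 others that were higher (*Sdhd*, *Cox8a* and *Atp5k*) and *Uqcrc1*, which was not.
Sdhd, chr9:50603800-50604099, minus strand: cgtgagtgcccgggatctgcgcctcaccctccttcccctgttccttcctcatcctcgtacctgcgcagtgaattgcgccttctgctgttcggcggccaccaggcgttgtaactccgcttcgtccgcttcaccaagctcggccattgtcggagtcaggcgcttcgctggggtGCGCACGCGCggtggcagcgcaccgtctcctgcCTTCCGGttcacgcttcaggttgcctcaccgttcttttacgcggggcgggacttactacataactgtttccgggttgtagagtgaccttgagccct
Uqcrc1, chr9:108936398-108936697, plus strand: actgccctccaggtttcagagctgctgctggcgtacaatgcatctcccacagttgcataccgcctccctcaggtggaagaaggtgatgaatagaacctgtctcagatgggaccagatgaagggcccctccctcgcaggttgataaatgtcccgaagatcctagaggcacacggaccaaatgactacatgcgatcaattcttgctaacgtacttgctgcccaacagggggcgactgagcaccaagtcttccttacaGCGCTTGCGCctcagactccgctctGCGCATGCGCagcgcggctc
Cox8a, chr19:7217567-7217866, minus strand: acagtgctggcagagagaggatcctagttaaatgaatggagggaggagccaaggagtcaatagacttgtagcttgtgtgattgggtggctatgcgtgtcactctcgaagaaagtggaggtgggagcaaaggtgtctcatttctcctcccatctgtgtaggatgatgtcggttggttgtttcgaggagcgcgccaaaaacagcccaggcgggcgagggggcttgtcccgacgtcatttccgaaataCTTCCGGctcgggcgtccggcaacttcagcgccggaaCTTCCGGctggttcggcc
Atp5h, chr11:115419870-115420169, minus strand: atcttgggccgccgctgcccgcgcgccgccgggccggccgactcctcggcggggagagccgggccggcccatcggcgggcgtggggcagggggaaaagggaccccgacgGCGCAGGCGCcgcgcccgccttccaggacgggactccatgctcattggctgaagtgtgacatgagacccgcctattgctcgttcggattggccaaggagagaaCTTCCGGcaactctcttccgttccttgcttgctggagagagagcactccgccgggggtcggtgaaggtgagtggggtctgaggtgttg
Atp5k, chr5:108434350-108434649, minus strand: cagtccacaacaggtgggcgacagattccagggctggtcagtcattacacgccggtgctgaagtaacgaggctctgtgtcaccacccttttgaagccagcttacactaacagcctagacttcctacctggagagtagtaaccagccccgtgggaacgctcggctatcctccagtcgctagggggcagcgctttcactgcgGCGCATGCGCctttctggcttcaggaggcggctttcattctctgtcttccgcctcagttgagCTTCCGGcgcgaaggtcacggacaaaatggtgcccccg
*Sdhd*, *Atp5h* and *Atp5k* hold 1 match to each motif, *Cox8a* a pair of GABPA matches and *Uqcrc1* a pair of NRF1 matches.

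The NRF1 motif was found in 10 of 35 members (28.6%), against 13.1% of the 8354 tested genes with a window and 5.19% of 27025 genes in all. The GABPA motif was found in 12 (34.3%, against 23.2 and 9.93%), and the YY1 motif (AAGATGGCG, which can overlap the last 3 letters of CCGGAAG) in 3 (8.57%, against 4.202 and 1.64%). An SP1 motif (GGGGCGGGG) was in 7 of 35 members and in 25.3% of tested genes, an E-box (CACGTG) in 14.3 and 12.3%, and TATAAA in 2.86 and 8.15%. Of the 10 members with the NRF1 motif, 9 were higher (median 0.82), as were 21 of the 25 without it (median 0.80). All 12 members with the GABPA motif were higher (median 0.97), and so were 18 of the 23 without it (median 0.73). After the length and GC correction these medians were 0.40 with and 0.26 without the GABPA motif, and 0.43 with and 0.26 without the NRF1 motif. A match is a string of letters in this window and does not show that a factor binds there.

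The genes of these factors moved in both directions. Of 18 tested genes for transcription and replication of mitochondrial DNA and for its nuclear regulators, 4 were higher and 7 lower, with a median of 0.07. Among all genes tested, 35.8% were higher and 29.8% lower, with a median of 0.04, so these counts do not set the list apart. *Nrf1* had an FPKM of 38.3, 38.5 and 37.9 in WT and of 45.6, 46.9 and 47.1 in cKO (0.27 ± 0.0556 SE, adjusted p = 0.00414 from limma). *Gabpa* had 25.5, 25.4 and 25.2 in WT and 31.1, 33.8 and 31.1 in cKO (0.32). Both were higher, whereas *Yy1* (72.0 to 73.8 in WT, 53.0 to 55.3 in cKO, -0.42) and *Esrra*, which encodes the nuclear receptor ERR alpha (15.8 to 17.2 in WT, 6.83 to 10.5 in cKO, -0.93), were lower in every cKO library.

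Assembly factors help to build the complexes without being part of them. Of 37 tested, 23 were higher and 1 lower, with a median of 0.46 (35.8% of all genes higher, 29.8% lower). For complex II, *Sdhaf2*, *Sdhaf3* and *Sdhaf4* rose (0.41, 1.27 and 0.73), and *Sdhaf1* had 0.14. For complex III, *Bcs1l*, *Uqcc1*, *Uqcc2* and *Uqcc3* rose (0.43, 0.48, 1.06 and 0.48), and *Ttc19* and *Lyrm7* had -0.11 and 0.10. For complex V, *Atpaf1* and *Atpif1*, the gene of the ATPase inhibitor, rose (0.45 and 0.94), and *Atpaf2* and *Tmem70* had 0.03 and 0.19. For complex IV, 14 of 23 were higher, among them the copper chaperones *Cox17* (168 to 173 in WT, 249 to 384 in cKO, 0.86) and *Cox19* (0.96). *Cox11*, which delivers copper to the catalytic core, was the single lower gene (8.70 to 8.90 in WT, 6.11 to 7.96 in cKO, -0.35), and *Sco2*, another copper chaperone, had -0.02. With equal FPKM totals 7 of the 37 were higher and 9 lower (8.74% of all genes higher, 59.9% lower).

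Subunits outside the symbol rule and the electron carriers were mixed. *Cyc1*, the cytochrome c1 subunit of complex III, had an FPKM of 87.2, 83.3 and 83.7 in WT and of 74.8, 72.5 and 85.8 in cKO (-0.13 ± 0.0827 SE, adjusted p = 0.210 from limma), so that it did not pass the test, as *Uqcrc1* did not. *Usmg5* and *2010107E04Rik*, small membrane subunits of complex V, rose by 0.91 and 1.03, and *Ndufa4*, now counted with complex IV, by 0.76. None of these 3 was higher under quantile normalization or with equal FPKM totals, where 1 gene of this list was lower, and 1 was higher after the length and GC correction. *Cycs*, the cytochrome c that links complexes III and IV, rose from 24.6, 25.2 and 26.9 in WT to 42.4, 45.4 and 54.6 in cKO (0.86 ± 0.101, adjusted p = 0.000483 from limma). *Etfa*, *Etfb* and *Etfdh*, which pass electrons from fatty acid oxidation to ubiquinone, rose by 0.85, 1.27 and 0.69, and *Dhodh* and *Gpd2*, other donors to ubiquinone, had -0.18 and 0.06. The subunits encoded in mitochondrial DNA are not analysed here.

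The neighbouring pathways and the dividing-cell genes were set beside the members. Their summed FPKM values are not divided by the FPKM totals, which were larger in every cKO library than in any WT library. For each count that follows, unless another scaling is named, the share over all genes tested was 35.8% higher and 29.8% lower, with a median of 0.04. Of 13 TCA cycle genes, 10 were higher and none lower, with a median of 0.64, among them *Fh1* (1.10), which encodes fumarase, while *Cs*, the first enzyme of the cycle, *Ogdh* and *Dlst* did not pass the test (0.22, -0.30 and -0.33). Of 13 genes of ubiquinone synthesis 5 were higher and 2 (*Coq10a* and *Adck4*) lower, with a median of 0.09. The 35 complex I subunits were all higher, with a median of 0.87. All 17 proliferation genes were higher too, with a median of 1.07, and their summed FPKM was 1499 to 1500 in WT and 2924 to 3387 in cKO. Under quantile normalization, equal FPKM totals and the length and GC correction, 28, 20 and 26 of the 35 complex I subunits were higher. For the 17 proliferation genes these counts were 16, 14 and 16, and for the 43 members 23, 19 and 18. Over all genes tested the shares were 33.7, 8.74 and 32%. *Mki67*, a marker of dividing cells, had 97.1 to 100.8 in WT and 178 to 257 in cKO. The part of dividing cells in the differences of the respiratory genes was not tested. Of 8 DP markers 6 were higher, with a median of 0.58 (-0.04 under quantile normalization) and summed FPKM of 4853 to 4936 in WT and 6726 to 8846 in cKO. Of 5 markers of mature T cells 4 (*Ccr7*, *S1pr1*, *Klf2* and *Il7r*) were lower, *Ccr7* having 15.1 to 16.2 in WT and 1.16 to 2.50 in cKO. The summed myeloid and stromal markers were under 8 in every library, and the B-cell list, at 22.8 to 24.2 in WT and 26.6 to 39.4 in cKO, rested on *Cd79b*.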

How the data were processed

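Per the study's methods, the libraries were directional and made from polyadenylated RNA, and the authors trimmed the paired-end reads, aligned them against mm10 (TopHat) and deposited Cufflinks FPKM values, 1 per gene symbol and library; versions and annotation are not given in the sources used here. Each library was divided by a median-of-ratios size factor (1.00 to 1.01). Genes that reached FPKM 1 in 3 or more libraries were tested between genotypes as log2(FPKM + 1). The test was limma 3.58.1 (lmFit, eBayes with trend, R 4.3.3), with Benjamini-Hochberg adjustment over 10326 genes at 0.05. The fit was tried on simulated data with the same spread in both genotypes, so it was not tested for the unequal spread of these libraries. Fold changes on this scale understate low genes. The authors' DESeq2 test needs counts and was not repeated.

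Lengths, GC content and shared stretches of read length came from GENCODE release 21, to which 22139 symbols matched by name and 665 by synonym, and promoters from RefSeq. The FPKM worth of 1 fragment at single-transcript genes over 1000 nucleotides gave an estimate of depth, assuming fragments of 200; it sets the counting noise only. Length and GC content were removed with natural splines of 5 degrees of freedom. Python 3.11.15 and scipy 1.17.1 were used otherwise.

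The members, gene lists and roles were chosen with earlier results of these data known. Full values were given for the complex II genes, core or named subunits, the c subunit genes, *Atp5h* and the largest and smallest change per complex; other members by range. *Atp5d*, *Atp5o*, *Cox6a2* and *Cox7a1* were added after their values were seen. Of longer lists up to 4 genes were named. Settings varied were pseudocount, filter, scaling, block, trend, WT libraries as 1 sample, length and GC correction, and each library left out. Some genes of the lists are not reported here.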

Additional observations from a re-analysis of the deposited data

How the results depend on the processing

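Pseudocount 0.1, no scaling and no trend left 37 members higher and 0 lower. Leaving out each library gave 34 to 39 higher and 0 to 1 lower members, and 3083 to 4132 higher and 2503 to 3522 lower genes in all; lower assembly genes numbered 0 to 2, ubiquinone 1 to 2 and TCA 0 to 1. *Atp5d* was then -0.024 to 0.49, *Uqcrc1* -0.091 to 0.32 and *Atp5sl* -0.166 to 0.015. With WT libraries as 1 sample, 739 genes were higher and 902 lower; members were 9 higher (complex II 1, III 3, IV 4, V 1), assembly 5 higher and 0 lower, ubiquinone 0 lower, regulators 0 higher and 2 lower, TCA 4 higher. After length and GC correction, 18 members were higher and 2 lower (III 3, IV 3, V 9 higher; medians 0.30 in all, 0.34, 0.27, 0.19 and 0.47), assembly 5 lower, ubiquinone 3 higher; *Atp5g3* was -0.087, *Atp5sl* 0.017, *Cox5a* -0.0056, *Cox7c* -0.23, *Uqcrfs1* -0.049 and *Uqcrh* -0.029. Under quantile normalization, 23 members were higher and 2 lower (III 4, IV 8, V 9; medians 0.29, 0.26, 0.34, 0.33 and 0.27), ubiquinone 1 lower, regulators 2 higher, TCA 2 lower; *Atp5a1* was -0.28, *Atp5d* -0.27, *Atp5g3* -0.022, *Atp5s* 0.036, *Cox4i1* -0.049, *Cox6a1* -0.16, *Uqcrc1* -0.28 and *Uqcrfs1* -0.029. With the same FPKM total, 903 genes were higher and 6182 lower; members were 19 and 6 (II 1, IV 5, V 8 higher; medians 0.24, 0.017, 0.31, 0.24 and 0.31), assembly 7 and 9, ubiquinone 1 and 7, regulators 0 and 14, TCA 5 and 3, proliferation 1 lower; *Atp5a1* was -0.26, *Atp5d* -0.36, *Atp5g1* -0.026, *Cox6a1* -0.10, *Sdha* -0.13, *Uqcrc1* -0.50 and *Uqcrfs1* -0.21. Without a filter ubiquinone had 1 lower. Replicate numbers did not pair the libraries (correlations of deviations -0.02 to 0.04); with a replicate block 36 members were higher and 1 (*Cox6b2*) lower, 3513 genes higher and 2954 lower, and ubiquinone 1 lower. The cause of these changes was not tested. Depth limits *Cox6a2* and *Atp5s* most among the tested members.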
